A study of Mus musculus with 8 samples.

Results

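Protocadherins are cell surface adhesion proteins of the cadherin superfamily. Their genes were read from RNA-seq counts of neural progenitor cells of the embryonic mouse neural tube, in libraries labelled 53BP1 knockout (KO-labelled below) and in control libraries. The rule took every row of the count table whose symbol starts with Pcdh, which gave 68 of 32499 rows: 13 of the alpha cluster (Pcdha), 22 of the beta cluster (Pcdhb), 21 of the gamma cluster (Pcdhg) and 12 numbered genes outside the clusters. A filter on low counts left 57 of the 68 for testing, and 55 of these reached the level of the filter in all 4 libraries of both groups. The exceptions were Pcdha7, which reached it in controls only, and Pcdha9, which reached it in all KO-labelled libraries and in 3 controls.

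The clustered genes lie side by side on chromosome 18. In the alpha and gamma clusters each gene has a large first exon of its own, with its own promoter, which is spliced to a few constant exons shared by the whole cluster. Each isoform thus has its own extracellular part and a common intracellular tail. Beta genes have a single exon and no such tail. Single neurons express different combinations of these isoforms, chosen through loops that CTCF and cohesin form between a promoter and a distant enhancer, and the combinations are known for self-recognition and self-avoidance of dendrites and axons. The C-type genes at the end of the alpha and gamma clusters (Pcdhac1, Pcdhac2, Pcdhgc3 and Pcdhgc5 among the rows) are expressed more evenly from neuron to neuron. The non-clustered genes code for the delta protocadherins and a few others, which act in axon growth, cell sorting and, for Pcdh15, in the hair cells of the inner ear.

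The groups were 4 KO-labelled libraries and 4 control libraries, all from the C57BL/6 strain at embryonic day 14. Per the labels' protocols, mutants were bred from the Trp53bp1tm1Jc knockout strain and from males whose 53bp1 locus carried in-frame deletions made with CRISPR, and the controls were wild-type embryos. The labels call the first group 53BP1 KO and do not give the pair of alleles of each library. Cells of the neural tube were sorted with the dye NeuroFluor CDr3, which binds Fabp7 of radial glia, and stranded libraries were made from total RNA. The labels do not say that libraries came from separate embryos, and the p-values therefore reflect the scatter among these libraries alone, which may be technical. Trp53bp1 had 617, 388, 341 and 600 counts in KO-labelled 1 to 4, against 497, 487, 417 and 412 counts in controls 1 to 4. The groups overlapped (edgeR log2 fold change 0.01 ± 0.14 SE, adjusted p = 0.960). A deletion that leaves the transcript in place need not lower the count, so this level does not check the labels. Total counts ran from 11081419 to 24339621 in the KO-labelled libraries and from 15343046 to 18189045 in the controls. Xist, the RNA of the inactive X chromosome, had 9, 16, 13 and 12 counts in KO-labelled 1 to 4, against 23999, 26134, 23853 and 24430 counts in controls 1 to 4, and the Y-linked Ddx3y had 995, 579, 801 and 1064 counts in KO-labelled 1 to 4, against 0 in each control. Group and sex therefore coincided in 8 of 8 libraries, and the effects of genotype and sex on any gene below cannot be told apart.

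The progenitor label was checked against its markers. Levels are given as CPM, the counts scaled to each library's size after TMM normalization. Fabp7 had 7793 ± 1269 CPM in the KO-labelled libraries and 7591 ± 1014 CPM in the controls (SD, n = 4 each), and Sox2 had 166 ± 22.7 CPM in the KO-labelled libraries and 97.0 ± 7.68 CPM in the controls. Of 21 progenitor markers 8 rose and 5 fell (adjusted p under 0.05 by edgeR). Of all genes tested 16.1% rose and 13.9% fell, shares that apply beside each list below. The progenitor markers that fell were Nes, Vim, Prom1, Gli3 and Nr2e1. Nes had 114 ± 16.8 CPM in the KO-labelled libraries and 213 ± 37.2 CPM in the controls. Neurons express most clustered protocadherins, and 26 neuronal markers summed to 787 to 909.8 CPM in the KO-labelled libraries and 797 to 1001 CPM in the controls. Of the 25 tested, 4 rose and 4 fell, shares near those of all genes. Of 15 astrocyte markers tested 12 rose and none fell, and the list summed to 1911 to 2129 CPM in the KO-labelled libraries and 1087 to 1178 CPM in the controls. Of 10 mesenchymal markers 1 rose and 7 fell, and the list summed to 41.9 to 51.6 CPM in the KO-labelled libraries and 81.7 to 141 CPM in the controls, and of 5 endothelial markers 2 fell, with sums of 5.03 to 10.5 CPM in the KO-labelled libraries and 11.9 to 19.1 CPM in the controls. Of 5 muscle markers tested 3 fell, with sums of 22.7 to 25.5 CPM in the KO-labelled libraries and 37.8 to 47.2 CPM in the controls. Of 14 oligodendrocyte markers 5 rose and 3 fell, with sums of 2830.4 to 3307 CPM in the KO-labelled libraries and 2868 to 3209 CPM in the controls. The 1 microglia marker tested did not pass, and erythroid markers summed to at most 1.05 CPM in any KO-labelled library and 1.30 CPM in any control. The part of these cell types in the differences below was not tested. In bulk samples, fewer cells of a type and less RNA per cell cannot be told apart.

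Exon sharing limits what a count of a clustered gene means. In the GENCODE M21 annotation of GRCm38, all 13 alpha genes share between 2860 and 2864 exonic bases with one another (a median of 53.5% of their exonic length), and all 21 gamma genes share between 2116 and 2119 (a median of 44.8%). All 22 beta genes have a single exon, and Pcdhb21 and Pcdhb22 overlap by 455 bases. None of the 12 non-clustered genes shares exonic bases with another protocadherin. The counts were made on another assembly, and how reads in shared exons were treated is not given in the sources used here. Pcdha1 had 0 counts in every library, where Pcdhac2 had 6537 over all libraries. Reads in the shared alpha exons were thus not counted for Pcdha1. If such reads were dropped, an alpha or gamma count stands for the gene's own first exon. Levels of different alpha or gamma genes are therefore not compared per length, and shares of a cluster's reads below describe the counts only. Neighbouring genes are also similar in sequence, so some reads may be split between them.

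Over all 57 protocadherins tested, 13 rose and 3 fell, at an adjusted p under 0.05 (edgeR's quasi-likelihood F test, Benjamini-Hochberg over 15021 genes). These are 28.1% of the members, where 30.0% of all genes tested passed, so the share that differed was near that of all genes and is no result about the family. By direction, 22.8% of the members rose, against 16.1% of all genes, and 5.26% fell, against 13.9% of all genes. The median log2 fold change was 0.14 over the members and 0.001 over all genes. The groups did not overlap for 14 of 57 members, 12 with the KO-labelled libraries above and 2 with them below, where 29.9% of all genes tested did not overlap. By cluster, 7 of the rises were beta genes, 5 were gamma genes and 1 lay outside, and the 3 falls were alpha genes, among them Pcdha7, which entered the test only through the controls. No test of a difference between clusters was run.

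**Figure D1:**
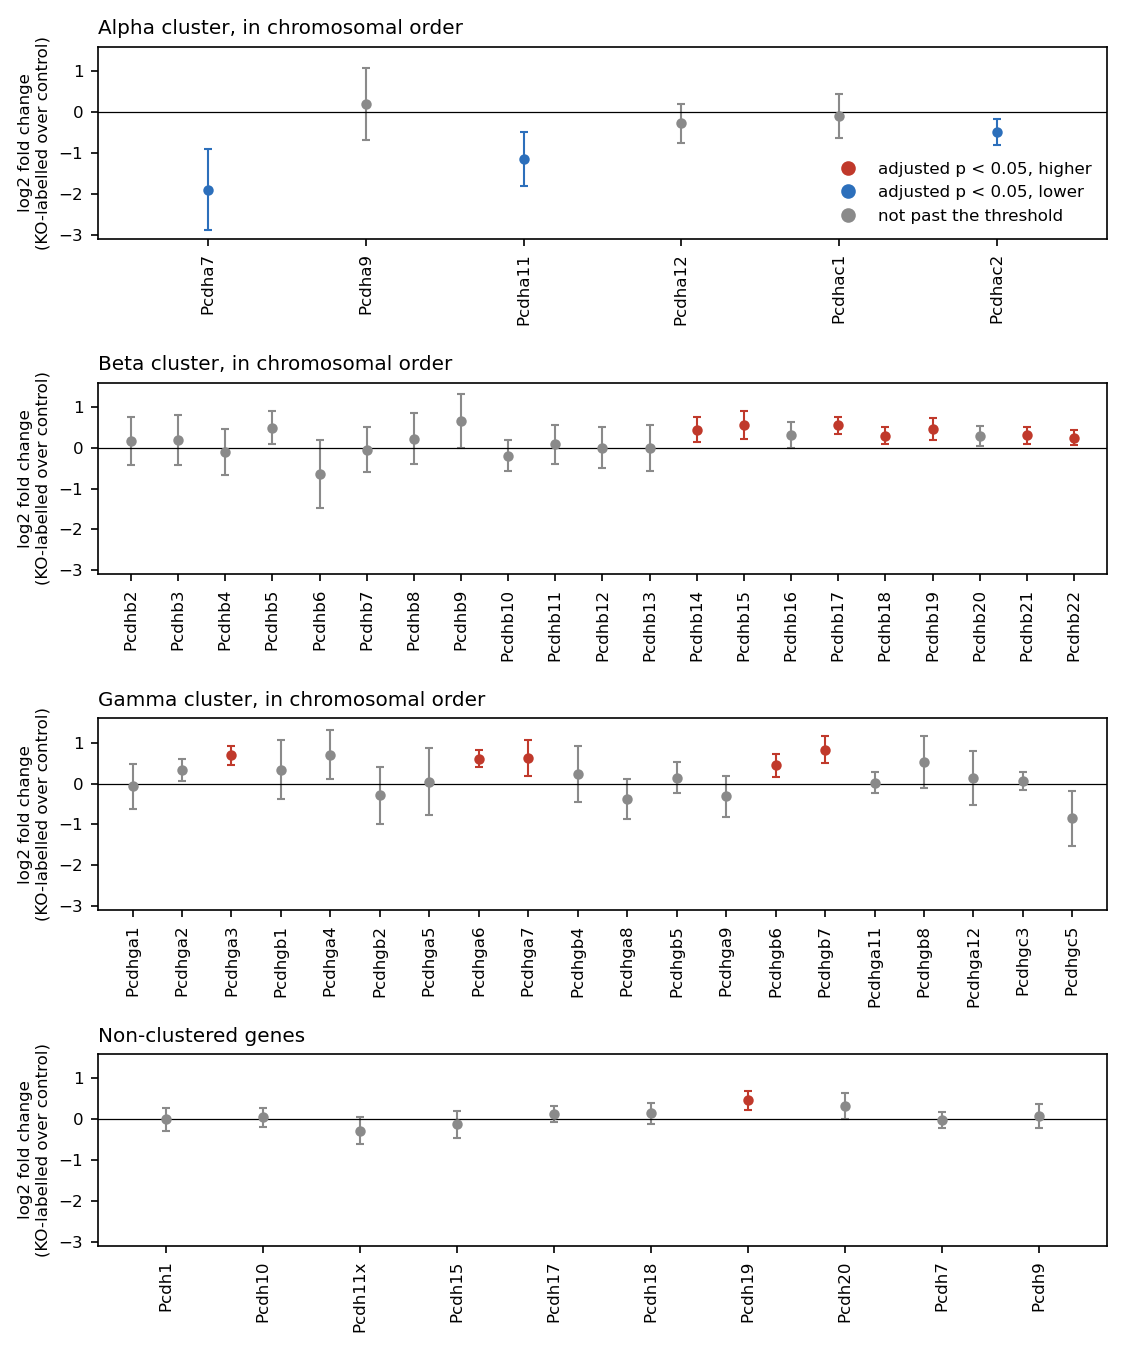
Log2 fold change (vertical axis, KO-labelled over control) of the 57 protocadherin genes tested, with 95% intervals, in 4 panels; clustered genes stand in their order along the chromosome. The 3 genes past the threshold in the alpha cluster lie below 0, and the 13 past it in the other panels lie above 0.

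Of 21 beta genes tested, 7 rose and none fell (33.3% rose, against 16.1% of all genes). At an unadjusted p under 0.05, edgeR gave 10 higher and 0 lower, where 6080 of all 15021 genes tested were under it. These 10 of 21 lie near the share of all genes, which counts both directions, and are no result about the cluster. With DESeq2 and limma voom none fell either. Their products are adhesion proteins that bind like with like on neighbouring membranes. Pcdhb17 had 38.1, 40.9, 36.4 and 40.2 CPM in KO-labelled 1 to 4, against 27.5, 24.2, 24.3 and 30.1 CPM in controls 1 to 4. Each KO-labelled library exceeded every control (edgeR log2 fold change 0.55 ± 0.10 SE, adjusted p = 0.000930). Pcdhb19 had 81.9, 80.8, 73.3 and 85.7 CPM in KO-labelled 1 to 4, against 47.0, 54.9, 54.6 and 75.7 CPM in controls 1 to 4. Control 4 overlapped with the KO-labelled libraries and the other controls lay well below them (edgeR log2 fold change 0.47 ± 0.13 SE, adjusted p = 0.0120). Pcdhb15 had 6.35, 6.97, 5.98 and 6.20 CPM in KO-labelled 1 to 4, against 3.62, 4.72, 3.68 and 5.24 CPM in controls 1 to 4, with no overlap (edgeR log2 fold change 0.56 ± 0.16 SE, adjusted p = 0.0182). Its adjusted p was 0.0577 without control 3.

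The other 4 were smaller rises, at log2 fold changes of 0.44 for Pcdhb14, 0.31 for Pcdhb21, 0.30 for Pcdhb18 and 0.25 for Pcdhb22, the last beta gene in order. Pcdhb14 had 26.7, 26.5, 24.1 and 30.6 CPM in KO-labelled 1 to 4, against 16.9, 19.8, 16.5 and 26.2 CPM in controls 1 to 4, so that control 4 overlapped with the KO-labelled libraries. Pcdhb22 had 64.1, 70.7, 68.7 and 76.0 CPM in KO-labelled 1 to 4, against 57.1, 56.7, 60.7 and 60.3 CPM in controls 1 to 4. For Pcdhb18, Pcdhb21 and Pcdhb22 the KO-labelled libraries lay above every control. These 4 calls were not stable. Each of the 4 was lost without control 1, 2 or 3 and without KO-labelled 4. Pcdhb14, Pcdhb18 and Pcdhb21 were also lost without KO-labelled 1, Pcdhb18 and Pcdhb22 without KO-labelled 2, and Pcdhb21 and Pcdhb22 without KO-labelled 3. Upper-quartile scaling lost Pcdhb18 and Pcdhb22, and RLE scaling lost Pcdhb22. Their adjusted p by edgeR under the alternatives reached 0.104 for Pcdhb14, 0.102 for Pcdhb18, 0.0723 for Pcdhb21 and 0.152 for Pcdhb22.

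The 7 beta genes that rose all belong to the last 9 of the cluster in chromosomal order, Pcdhb14 to Pcdhb22. The others of these, Pcdhb16 and Pcdhb20, had log2 fold changes of 0.31 and 0.29 that did not pass (adjusted p = 0.128 and 0.0594 by edgeR). Over the last 9, log2 fold changes ran from 0.25 to 0.56, with a median of 0.31. Among the first 13, Pcdhb1 had between 1 and 3 counts per library and was not tested, and none of the 12 tested passed, with log2 fold changes from -0.63 for Pcdhb6 to 0.67 for Pcdhb9 and a median of 0.04. Pcdhb5 came near, with a log2 fold change of 0.50 (adjusted p = 0.0612 by edgeR). The place of the rises moved with the processing. Pcdhb5 and Pcdhb9 also rose without a filter on low counts, and these and Pcdhb8 with limma voom. Pcdhb5 rose with a replicate block, and Pcdhb5, Pcdhb8, Pcdhb9 and Pcdhb11 without control 4. The split into first and last genes was made after the values were seen and was not tested. Depth moved with it. The last 9 had a median of 4639 counts over all libraries, and the first 12 tested had a median of 487.5, with SE from 0.18 to 0.39 for the first and from 0.09 to 0.16 for the last, so that a rise of the same size was less detectable in the first. Per kilobase of annotated exon, control levels were highest for Pcdhb20 at 9.28 CPM per kb, Pcdhb22 at 8.88 and Pcdhb19 at 8.13, and lowest among the tested genes for Pcdhb2 at 0.479.

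The summed beta counts had 419.7, 450.4, 412 and 465 CPM in KO-labelled 1 to 4, against 312, 325, 329 and 429.7 CPM in controls 1 to 4. KO-labelled libraries clustered between 412.4 and 465.2 CPM, controls 1 to 3 lay below them, and control 4 lay among them. The means were 437 ± 25.0 CPM in the KO-labelled libraries and 349 ± 54.3 CPM in the controls (SD, n = 4 each), a log2 ratio of 0.32, given with no test. Control 4 was the highest control for 19 of the 21 beta genes tested, for 38 of the 57 protocadherins and for 32.3% of all genes tested. Against the mean of the other controls it was 3.43 times as high in Pcdhb6 and 1.04 times as high in Pcdhb22, with a median of 1.43 over the beta genes. Control 4 also had the highest sums of progenitor, neuronal, mesenchymal, endothelial and muscle markers among the controls. Astrocyte, oligodendrocyte, microglia and erythroid markers summed highest in another control. The part of these cell types was not tested. Without control 4, 13 beta genes rose, among them all 7 named above, and none fell; without control 3, 2 beta genes rose.

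**Figure D2:**
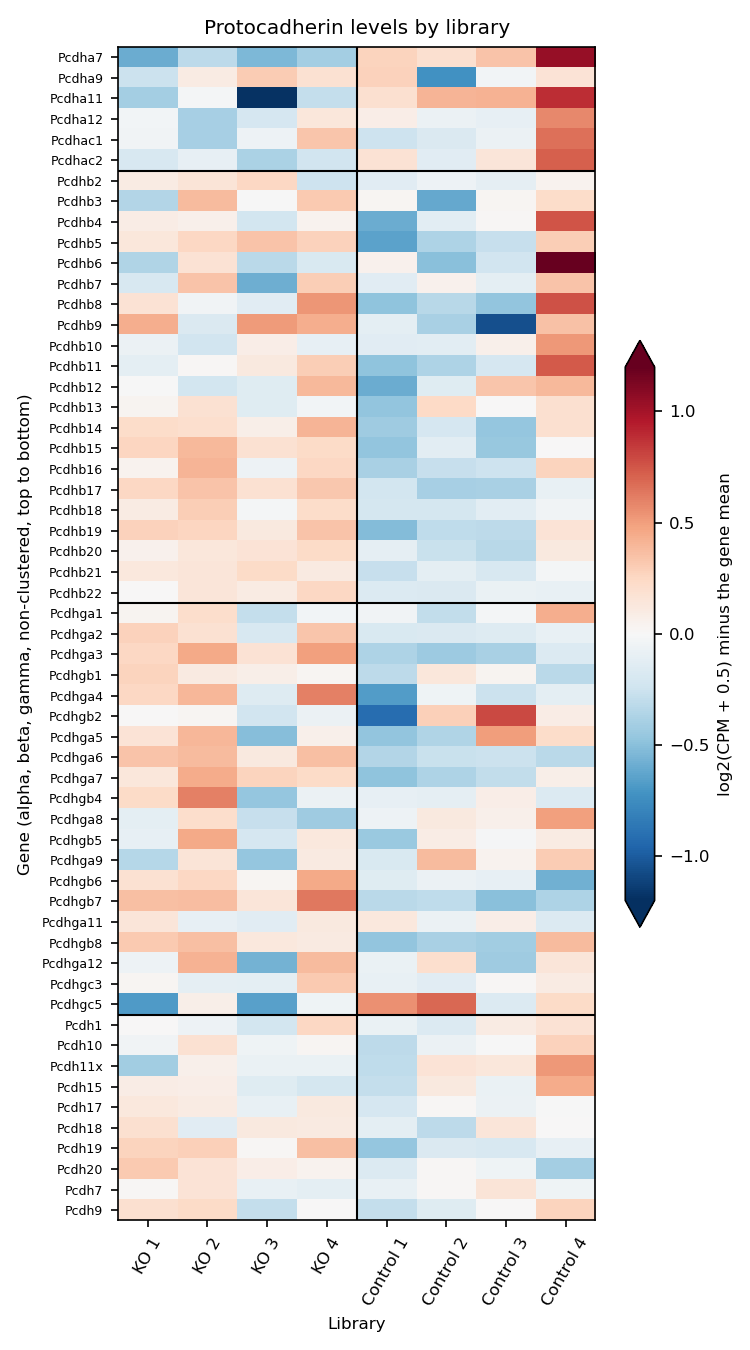
Level of each of the 57 protocadherin genes tested (rows) in the 8 libraries (columns), as log2(CPM + 0.5) minus the gene's mean over the libraries; red is above the mean and blue below, and black lines part the groups and the clusters. Control 4 is redder than the other controls in the alpha and beta rows, where it was the highest control for 5 of 6 and 19 of 21 genes.

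Reads from unspliced RNA or DNA that fall within an exon would count towards a gene, for the single-exon beta genes and for alpha and gamma genes alike. Counts of olfactory and vomeronasal receptor genes, which belong to sensory neurons of the nose, were summed as a measure of such reads. They had 31.7, 128, 87.8 and 48.5 CPM over 1476 genes in KO-labelled 1 to 4, against 67.3, 155, 100.5 and 130.3 CPM in controls 1 to 4. The groups overlapped. The part of such reads in the alpha, beta or gamma counts was not tested.

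Most gamma reads were counted for one C-type gene, which did not pass, and 5 of the other gamma genes rose. The cluster's A-type and B-type genes alternate along it. Of 11 A-type genes tested 3 rose and of 7 B-type genes 2 rose, none fell, and 5 of 20 gamma genes in all rose (25.0%, against 16.1% of all genes). At an unadjusted p under 0.05, edgeR gave 7 higher and 1 lower, Pcdhgc5, which DESeq2 and limma voom called. These 8 of 20 lie near the share of all genes (6080 of 15021) and are no result about the cluster. Pcdhga3 had 43.1, 49.7, 40.8 and 51.0 CPM in KO-labelled 1 to 4, against 28.0, 26.6, 27.5 and 32.3 CPM in controls 1 to 4. The groups were far apart (edgeR log2 fold change 0.69 ± 0.11 SE, adjusted p = 0.000234). Pcdhga6 had 28.0, 28.7, 23.9 and 28.4 CPM in KO-labelled 1 to 4, against 17.2, 18.2, 18.4 and 17.5 CPM in controls 1 to 4, again with no overlap (edgeR log2 fold change 0.61 ± 0.10 SE, adjusted p = 0.000380). Pcdhgb7 had 7.53, 7.58, 6.43 and 9.22 CPM in KO-labelled 1 to 4, against 4.49, 4.56, 3.93 and 4.33 CPM in controls 1 to 4, the largest rise of any member (edgeR log2 fold change 0.83 ± 0.15 SE, adjusted p = 0.000947). These 3 calls held in each alternative tried.

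Pcdhgb6 had 27.7, 29.0, 24.7 and 33.6 CPM in KO-labelled 1 to 4, against 22.0, 23.2, 22.7 and 16.2 CPM in controls 1 to 4. All KO-labelled libraries lay above the controls, of which control 4 was the lowest (edgeR log2 fold change 0.45 ± 0.13 SE, adjusted p = 0.0183). Its call was lost without KO-labelled 4 (adjusted p = 0.0867 by edgeR). Pcdhga7 had 3.15, 4.01, 3.50 and 3.40 CPM in KO-labelled 1 to 4, against 1.86, 2.06, 2.19 and 2.97 CPM in controls 1 to 4 (edgeR log2 fold change 0.62 ± 0.21 SE, adjusted p = 0.0354), and its call was lost when any library other than control 4 was left out, with an adjusted p of up to 0.0907 by edgeR. Of the 15 gamma genes that did not pass, 10 had a log2 fold change above 0 and 5 below, from -0.85 for Pcdhgc5 to 0.71 for Pcdhga4, whose 95% interval was 0.10 to 1.31. Pcdhga2, at 0.33 with an interval of 0.06 to 0.59, had an adjusted p of 0.0610 by edgeR. Pcdhga10 had between 4 and 9 counts per library and was not tested.

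Pcdhgc3, a C-type isoform that acts in dendrite branching of mouse cortical neurons through Axin1, held most gamma reads. It had 545, 499.6, 495 and 670.0 CPM in KO-labelled 1 to 4, against 504, 488, 544 and 575 CPM in controls 1 to 4. The groups overlapped and KO-labelled 4 was highest (edgeR log2 fold change 0.07 ± 0.11 SE, adjusted p = 0.681), and the 95% interval of -0.16 to 0.29 leaves room for a small difference in either direction. Its share of the gamma counts was between 72.7% and 77.7% in the KO-labelled libraries and between 78.6% and 81.1% in the controls, lower in all 4 KO-labelled libraries than in any control. These shares are of reads, not per length. Leaving it out, the other gamma genes summed to 173, 188, 149 and 192 CPM in KO-labelled 1 to 4, against 126, 133, 133 and 134 CPM in controls 1 to 4. Each KO-labelled library exceeded every control, with means of 175 ± 19.7 CPM in the KO-labelled libraries and 132 ± 3.91 CPM in the controls (SD, n = 4 each; log2 ratio 0.41, no test), whereas with Pcdhgc3 the groups overlapped and the log2 ratio was 0.14, or 0.05 without KO-labelled 4. Of the genes other than Pcdhgc3, those with the most counts were Pcdhga3, Pcdhgb6 and Pcdhga6, which all rose. The sum and the share of Pcdhgc3 thus largely repeat single calls and do not measure the remaining gamma genes.

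**Figure D3:**
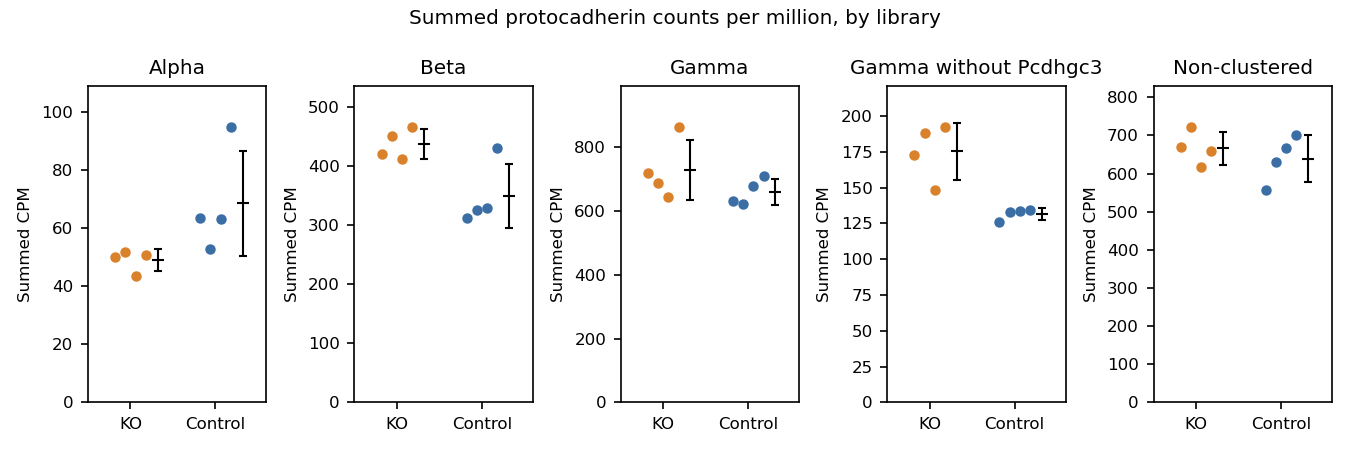
Summed CPM (vertical axes, each from 0) of the alpha, beta, gamma and non-clustered protocadherins by library, with the gamma cluster also without Pcdhgc3; points are libraries, KO-labelled left of control, and bars show mean and SD (n = 4). The groups separate for alpha and for gamma without Pcdhgc3, and control 4 overlaps with the KO-labelled libraries in the beta sum. Most alpha counts are of Pcdhac2, and without it the alpha groups overlap. The gamma sum without Pcdhgc3 includes the gamma genes that rose.

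Pcdhgc5, a C-type gene whose product binds GABA-A receptors, had a log2 fold change below 0 that did not pass. Its level was 0.935, 1.92, 0.958 and 1.72 CPM in KO-labelled 1 to 4, against 2.85, 3.20, 1.55 and 2.20 CPM in controls 1 to 4. KO-labelled 2 and 4 overlapped with control 3 (edgeR log2 fold change -0.85 ± 0.32 SE, adjusted p = 0.0565). It passed as lower under DESeq2 (adjusted p = 0.0416), limma voom, the stricter filter, with the replicate block and without KO-labelled 2, control 3 or control 4.

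All 3 protocadherins that fell were alpha genes, and few alpha genes could be tested: 7 of the 13 had at most 8 counts in any library. Of the 6 tested 3 fell and none rose, where 13.9% of all genes fell, but 1 of the 3, Pcdha7, entered the test only through the controls and had to differ; of the other 5, 2 fell. At an unadjusted p under 0.05, edgeR gave 0 higher and 3 lower, Pcdha7 among them, where 6080 of all 15021 genes tested were under it. These 3 of 6 lie near that share, which counts both directions, and are no result about the cluster. DESeq2 and limma voom called none higher. Pcdhac2, which serotonergic axons of the mouse need to spread evenly over their targets, held between 77.1% and 82.4% of the alpha reads in the KO-labelled libraries and between 78.8% and 81.7% in the controls. It had 40.1, 42.8, 35.2 and 39.2 CPM in KO-labelled 1 to 4, against 51.8, 41.7, 50.7 and 75.9 CPM in controls 1 to 4. KO-labelled 2 lay above control 2 and control 4 stood far above the rest (edgeR log2 fold change -0.48 ± 0.15 SE, adjusted p = 0.0253). This call was lost without KO-labelled 1, 3 or 4 (adjusted p = 0.0546, 0.0620 and 0.0604 by edgeR) and with limma voom.

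Pcdha11 had 29, 23, 11 and 38 counts in KO-labelled 1 to 4, against 44, 53, 45 and 65 counts in controls 1 to 4, which gave 1.43, 2.00, 0.620 and 1.59 CPM in KO-labelled 1 to 4, against 2.41, 2.88, 2.90 and 4.20 CPM in controls 1 to 4. The groups did not overlap and KO-labelled 3 was lowest (edgeR log2 fold change -1.15 ± 0.31 SE, adjusted p = 0.0122). Pcdha7 had 4, 4, 4 and 7 counts in KO-labelled 1 to 4, against 14, 13, 13 and 26 counts in controls 1 to 4. Because it reached the filter in no KO-labelled library, its counts are given as a description. The call of Pcdha11 held in each alternative tried. Pcdha12, Pcdhac1 and Pcdha9 had log2 fold changes of -0.28, -0.09 and 0.20 and did not pass. Their 95% intervals, from -0.76 to 0.21, -0.63 to 0.44 and -0.69 to 1.08, include differences of the size seen for Pcdhac2. Summed over the cluster, alpha genes had 49.9, 51.9, 43.7 and 50.8 CPM in KO-labelled 1 to 4, against 63.4, 52.9, 63.0 and 94.7 CPM in controls 1 to 4. Each KO-labelled library was lower than every control, but control 2 came close to KO-labelled 2. The log2 ratio was -0.48, given with no test, and -0.29 without control 4. Most counts in this sum are of Pcdhac2. Without that gene, KO-labelled 1 to 4 had 9.79, 9.15, 8.51 and 11.7 CPM. Controls 1 to 4 had 11.6, 11.2, 12.3 and 18.9 CPM, so that KO-labelled 4 lay above controls 1 and 2 and the groups overlapped. Control 4 was the highest control for 5 of the 6 alpha genes.

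**Figure D4:**
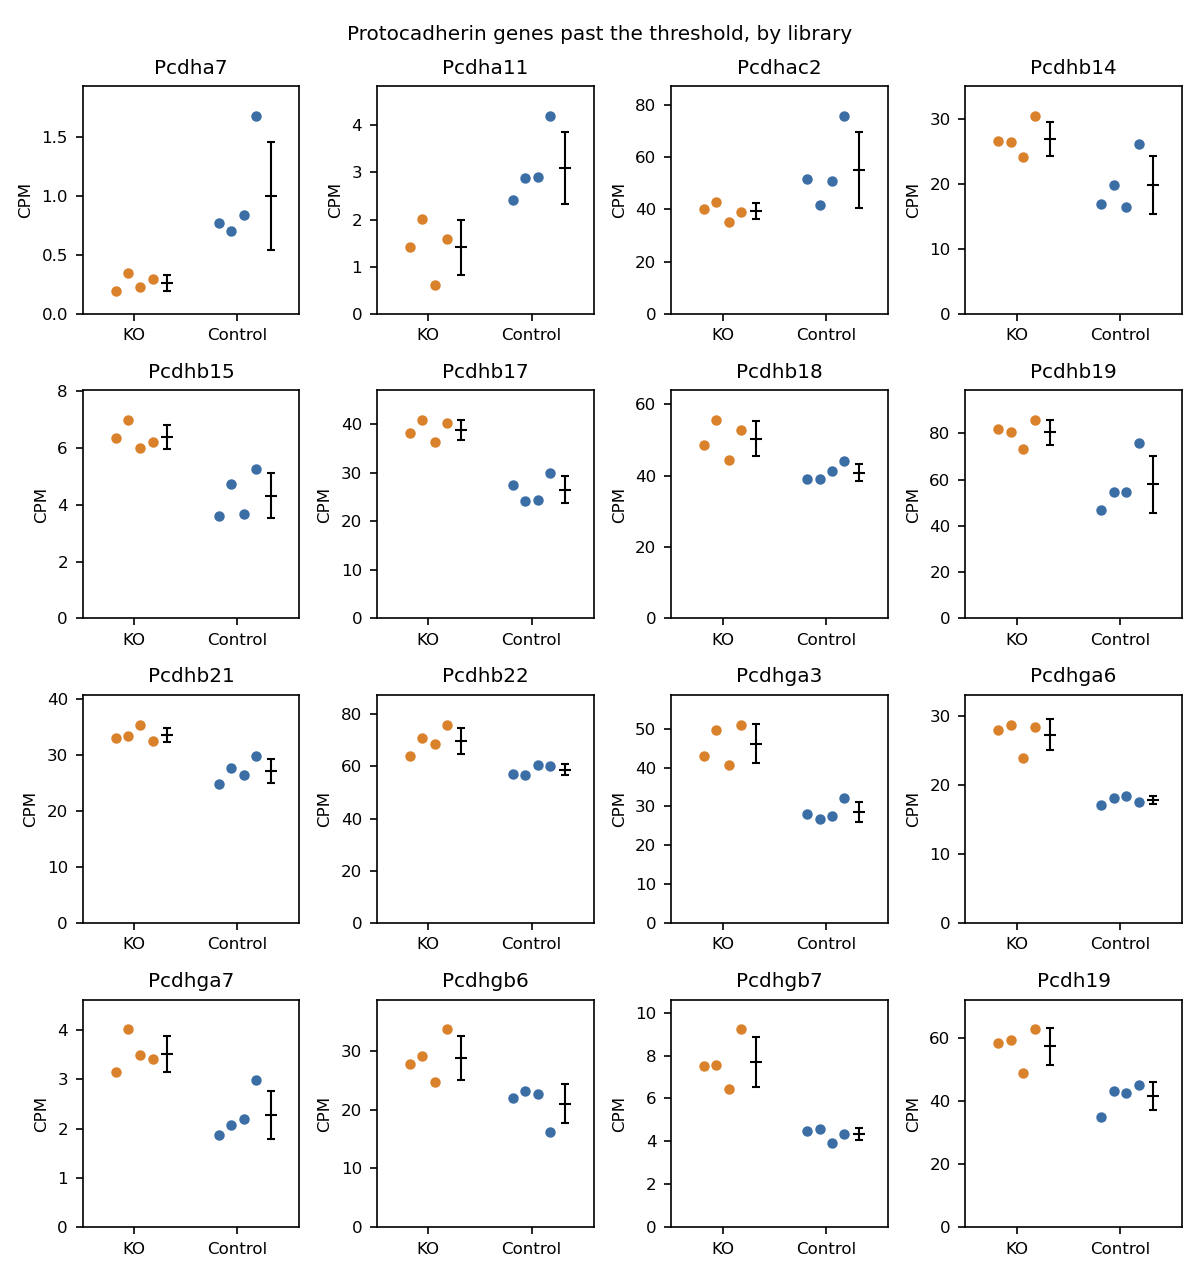
CPM by library (vertical axes, each from 0) of the 16 protocadherin genes past the threshold; points are libraries, KO-labelled left of control, and bars show mean and SD (n = 4). The 3 alpha genes are lower and the other 13 higher in the KO-labelled libraries, and control 4 is the top control in most panels.

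Outside the clusters, 1 of 10 genes tested passed, where 30.0% of all genes did. This was Pcdh19, an X-linked delta2 protocadherin that forms adhesion complexes with N-cadherin and whose mutation in humans causes an epilepsy of heterozygous females. It had 58.6, 59.5, 49.1 and 62.9 CPM in KO-labelled 1 to 4, against 35.2, 43.3, 42.7 and 45.3 CPM in controls 1 to 4. Each KO-labelled library exceeded every control (edgeR log2 fold change 0.47 ± 0.11 SE, adjusted p = 0.00468), and the call held in all 16 alternatives, with adjusted p up to 0.0244. The other X-linked member, Pcdh11x, had 18.8, 26.3, 23.8 and 23.9 CPM in KO-labelled 1 to 4, against 20.3, 28.4, 27.8 and 36.3 CPM in controls 1 to 4. The groups overlapped (edgeR log2 fold change -0.28 ± 0.16 SE, adjusted p = 0.194), and it passed as lower without control 1 (adjusted p = 0.0366 by edgeR). The KO-labelled libraries had the Xist and Y-linked counts of male cells and the controls those of female cells; the part of sex in either value cannot be told apart from genotype.

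The promoter of Pcdh19 is shown beside those of Pcdh17 and Pcdh10, delta2 genes that did not pass, to compare the changed gene with its nearest relatives. Capitals mark CGCT or, on the other strand, AGCG, the core of the element that most clustered protocadherin promoters carry; overlapping matches run together. Each is the 250 bases before the RefSeq start site in GRCm38.p6, 5′ to 3′ on the gene's strand (chrX:133688994-133689243, minus strand for Pcdh19; chr14:84443313-84443562, plus strand for Pcdh17; chr3:45378148-45378397, plus strand for Pcdh10).
Pcdh19: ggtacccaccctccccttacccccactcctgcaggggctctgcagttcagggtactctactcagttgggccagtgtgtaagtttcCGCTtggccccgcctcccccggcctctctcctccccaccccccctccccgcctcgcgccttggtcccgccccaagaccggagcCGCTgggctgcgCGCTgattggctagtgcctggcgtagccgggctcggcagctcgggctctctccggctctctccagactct
Pcdh17: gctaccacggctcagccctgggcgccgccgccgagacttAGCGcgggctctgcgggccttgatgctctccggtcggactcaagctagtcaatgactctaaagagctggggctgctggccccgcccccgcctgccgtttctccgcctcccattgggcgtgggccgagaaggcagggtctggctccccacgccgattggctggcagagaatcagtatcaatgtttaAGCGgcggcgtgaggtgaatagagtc
Pcdh10: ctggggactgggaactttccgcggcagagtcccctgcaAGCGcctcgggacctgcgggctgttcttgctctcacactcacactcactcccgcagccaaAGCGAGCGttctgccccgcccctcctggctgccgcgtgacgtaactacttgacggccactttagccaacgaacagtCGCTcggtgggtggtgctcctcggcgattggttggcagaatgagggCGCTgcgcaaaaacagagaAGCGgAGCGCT
The Pcdh19 window held 3 matches, that of Pcdh17 2 and that of Pcdh10 8. So short a motif is common: 55.7% of 32851 RefSeq promoter windows of this length held at least 1, with a median of 1, and 6.56% held 5 or more, as the Pcdh10 window did. Pcdh19 lay between the other 2 shown in its number of matches. The windows of the delta2 genes Pcdh18 and Pcdh8, not shown, held 7 and 5. The windows shown had 63.2% to 69.2% GC, against a median of 52.4% over all windows, so these shares are not matched for GC. The bases just after the RefSeq start of Pcdh19 were not found in its transcripts in the GENCODE reference, whereas those of Pcdh17 and Pcdh10 were, so the place of its start is less sure. RefSeq windows were matched for 9 of the 12 non-clustered genes.

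No other delta2 gene passed. Pcdh10, which guides growing striatal axons, had 179, 209, 179 and 188 CPM in KO-labelled 1 to 4, against 148, 176, 184 and 224 CPM in controls 1 to 4 (edgeR log2 fold change 0.04 ± 0.11 SE, adjusted p = 0.806), and its 95% interval was -0.20 to 0.29. Pcdh17, which recruits the WAVE actin regulator at contacts between axons, had 81.2, 79.6, 69.6 and 80.8 CPM in KO-labelled 1 to 4, against 64.5, 74.8, 70.8 and 74.0 CPM in controls 1 to 4 (edgeR log2 fold change 0.13 ± 0.09 SE, adjusted p = 0.294), and its interval was -0.06 to 0.32. For both genes the groups overlapped. Pcdh18 had a log2 fold change of 0.14 (interval -0.11 to 0.39). Pcdh8 had between 0 and 3 counts per library and was not tested.

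Of the delta1 genes, Pcdh7, whose tail binds protein phosphatase 1, had 211, 234, 197 and 193 CPM in KO-labelled 1 to 4, against 196, 211, 232 and 201 CPM in controls 1 to 4. The groups lay over one another (edgeR log2 fold change -0.01 ± 0.09 SE, adjusted p = 0.948), and the interval of -0.20 to 0.18 is among the narrowest of the family. Pcdh1 had 16.9, 16.2, 14.4 and 20.2 CPM in KO-labelled 1 to 4, against 15.9, 15.0, 18.1 and 19.1 CPM in controls 1 to 4 (edgeR log2 fold change -0.004 ± 0.13 SE, adjusted p = 0.985), and Pcdh9 had a log2 fold change of 0.07 (interval -0.22 to 0.37). For Pcdh1, Pcdh7, Pcdh9, Pcdh10 and Pcdh15 the sign turned under some alternatives, and none of these values passed.

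The remaining genes belong to neither delta group or are not placed here. Pcdh20 had 8.36, 7.49, 7.05 and 6.83 CPM in KO-labelled 1 to 4, against 5.87, 6.68, 6.38 and 4.85 CPM in controls 1 to 4. The KO-labelled libraries lay above all controls, but the difference did not pass (edgeR log2 fold change 0.32 ± 0.15 SE, adjusted p = 0.116). Pcdh15, a part of the tip link of inner ear hair cells, had 13.9, 13.9, 11.7 and 11.2 CPM in KO-labelled 1 to 4, against 10.6, 14.2, 12.3 and 17.98 CPM in controls 1 to 4 (edgeR log2 fold change -0.12 ± 0.16 SE, adjusted p = 0.592). Pcdh12, an adhesion protein of vascular endothelium, had between 0 and 3 counts in every library and was not tested. Summed over all 12 non-clustered genes, the level was 666 ± 43.0 CPM in the KO-labelled libraries and 639 ± 61.8 CPM in the controls (SD, n = 4 each), and the groups overlapped.

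Genes that shape the clustered locus were read in the same fit. Of 13 tested genes of CTCF, cohesin and its regulators, 4 fell and none rose (median log2 fold change -0.21, against 0.001 over all genes; 13.9% of all genes fell). Ctcf, whose protein anchors the promoter loops, had 78.9, 78.2, 75.5 and 71.8 CPM in KO-labelled 1 to 4, against 85.5, 84.0, 99.4 and 110.1 CPM in controls 1 to 4, with no overlap (edgeR log2 fold change -0.32 ± 0.10 SE, adjusted p = 0.0267). Stag1, a cohesin subunit, had 23.7 ± 2.01 CPM in the KO-labelled libraries and 31.0 ± 4.03 CPM in the controls (edgeR log2 fold change -0.39 ± 0.12 SE, adjusted p = 0.0207). Pds5b, which regulates cohesin release, and Esco2, which acetylates cohesin in S phase, fell too (log2 fold change -0.25 ± 0.08 SE and log2 fold change -0.82 ± 0.11 SE). Esco2 passed whichever library was left out. The call of Ctcf was lost without KO-labelled 1 or 4 or control 3 or 4 (adjusted p up to 0.0813 by edgeR), that of Stag1 without KO-labelled 4 or control 2 or 3 (up to 0.0753) and that of Pds5b when any library other than KO-labelled 2 or control 1 was left out (up to 0.134). Without a filter on low counts all 3 were lost, with adjusted p of 0.135 for Ctcf, 0.0752 for Stag1 and 0.309 for Pds5b. The cohesin core genes Smc1a (-0.02), Smc3 (-0.21) and Rad21 (-0.27) and the loader gene Nipbl (-0.38) did not pass.

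Of 23 genes of DNA methylation, heterochromatin and H3K27 methylation, 8 fell and 1 rose (median -0.05), where 13.9% of all genes fell and 16.1% rose. Smchd1, which silences the clustered protocadherins and the inactive X chromosome in mice, had 526, 486, 512 and 484 CPM in KO-labelled 1 to 4, against 553, 622, 604 and 709 CPM in controls 1 to 4. Each KO-labelled library was lower than every control (edgeR log2 fold change -0.31 ± 0.09 SE, adjusted p = 0.0191). Setdb1, a H3K9 methyltransferase that shields the cluster from excess CTCF in mouse neurons, had 29.3 ± 2.84 CPM in the KO-labelled libraries and 37.8 ± 1.39 CPM in the controls (edgeR log2 fold change -0.37 ± 0.10 SE, adjusted p = 0.0114). Its partner gene Trim28 fell by 0.45 on the log2 scale, and the maintenance methylation genes Dnmt1 (log2 fold change -0.99 ± 0.11 SE) and Uhrf1 (log2 fold change -1.26 ± 0.14 SE) fell furthest. Dnmt3b, which methylates the alternative promoters in mouse embryos, had a log2 fold change of 0.22 that did not pass (interval -0.20 to 0.64). The Polycomb genes Ezh2 (-0.28) and Eed (-0.36) and the X-linked H3K27 demethylase gene Kdm6a (-0.79) fell, and the demethylase gene Kdm6b rose (log2 fold change 0.40 ± 0.11 SE). The calls of Smchd1 and Kdm6b were lost without KO-labelled 4 (adjusted p = 0.0602 and 0.0613 by edgeR), and that of Ezh2 without KO-labelled 1, 3 or 4 or control 2 or 3 (up to 0.100). Whether any of these moved with the protocadherins within groups was not tested.

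**Figure D5:**
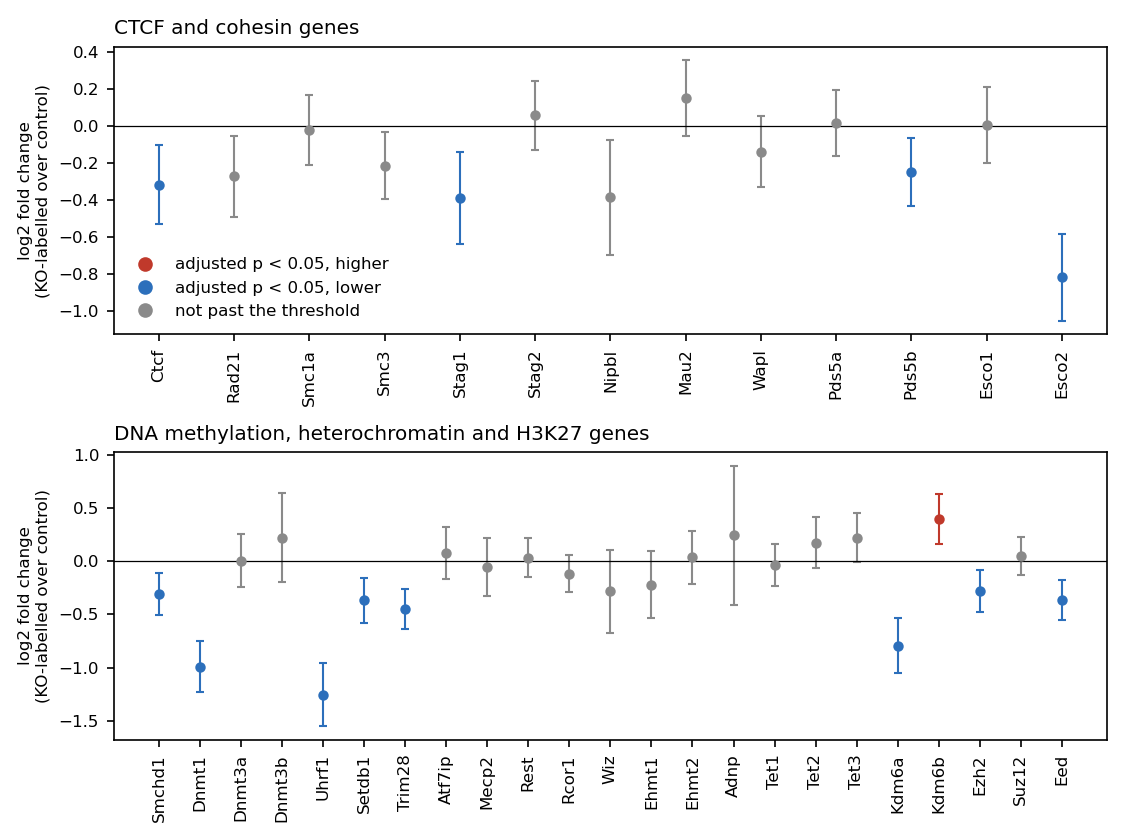
Log2 fold change (vertical axes, KO-labelled over control) with 95% intervals for the tested genes of CTCF and cohesin (top) and of DNA methylation, heterochromatin and H3K27 methylation (bottom). In the top panel 4 of 13 genes lie below 0 past the threshold; in the bottom panel 8 of 23 lie below and Kdm6b lies above.

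Downstream, protocadherin tails restrain the kinases FAK and PYK2 and recruit the WAVE complex. Of 24 tested genes of these partners 2 rose and 3 fell (median 0.06), a smaller share than the 30.0% of all genes. Fyn, a kinase found with alpha protocadherins, rose (log2 fold change 0.35 ± 0.09 SE), as did the WAVE gene Wasf3 (log2 fold change 0.28 ± 0.09 SE). The WAVE complex gene Abi2 (log2 fold change -0.29 ± 0.10 SE), Set (log2 fold change -0.25 ± 0.09 SE) and the kinase gene Taok2 (log2 fold change -0.35 ± 0.13 SE), a partner of Pcdh8 in rat neurons, fell. Each of these 5 calls was lost without some library: Fyn without control 2 (adjusted p = 0.0582 by edgeR), Wasf3 without KO-labelled 2 or 4 or any control (up to 0.146), Abi2 without KO-labelled 1 or 4 or control 3 or 4 (up to 0.109), Set without KO-labelled 1, 2 or 4 or control 2, 3 or 4 (up to 0.143) and Taok2 without KO-labelled 1 or 3 or control 1, 3 or 4 (up to 0.122). Without a filter on low counts Abi2 and Taok2 were lost too (adjusted p = 0.202 and 0.0900). Axin1, the partner of Pcdhgc3, had a log2 fold change of 0.07 that did not pass.

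Of 12 classical cadherin genes tested 1 passed, where 30.0% of all genes did. Cdh24 fell, with 6.74, 6.01, 6.20 and 7.04 CPM in KO-labelled 1 to 4, against 14.2, 11.6, 10.4 and 22.8 CPM in controls 1 to 4 (edgeR log2 fold change -1.17 ± 0.21 SE, adjusted p = 0.000764). N-cadherin, Cdh2, had 304, 294, 314 and 299 CPM in KO-labelled 1 to 4, against 333, 322, 345 and 511 CPM in controls 1 to 4, with no overlap and control 4 far above the rest, and did not pass (edgeR log2 fold change -0.32 ± 0.13 SE, adjusted p = 0.0752). Of 18 further cadherin superfamily genes 3 rose and 1 fell, where 16.1% of all genes rose and 13.9% fell. Celsr1, a planar polarity receptor, had 88.7, 94.2, 73.7 and 133 CPM in KO-labelled 1 to 4, against 33.5, 31.4, 33.7 and 52.4 CPM in controls 1 to 4, with each KO-labelled library above every control (edgeR log2 fold change 1.37 ± 0.19 SE, adjusted p = 7.70e-05). The giant cadherin gene Fat3 rose to 658 ± 111 CPM in the KO-labelled libraries, against 334 ± 60.7 CPM in the controls (SD, n = 4 each; log2 fold change 0.98 ± 0.14 SE). Both of these rises exceed the largest among the protocadherins, 0.83 for Pcdhgb7, in the fitted value; the difference between genes was not tested.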

How the data were processed

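RNA-seq of 8 libraries was analysed from whole-number read counts per gene that the authors deposited. Per the submitters' processing notes, CASAVA, HTSeq 0.6.1p1 and the builds mm9 and NCBIM37 were used; the sources used here give no aligner, strand setting or treatment of shared exons. All 8 columns were mapped by name. No pair of replicates agreed within sampling noise (chi-square of at least 4.45 per degree of freedom).

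Genes were filtered with filterByExpr, scaled by TMM and compared, KO-labelled over control, by quasi-likelihood F tests in edgeR 4.0.16 (R 4.3.3), with Benjamini-Hochberg adjustment over 15021 genes and a threshold of 0.05; the fit was tested on simulated data. CPM are counts scaled to the TMM-adjusted library size. SE is the log2 fold change over the square root of F, and 95% intervals use the test's degrees of freedom. Alternatives were DESeq2 1.42.0, voom of limma 3.58.1, other scalings and filters, robust dispersion, a replicate block and leaving out each library. Chromosomes, gene order, exons and promoters come from GRCm38 tables by symbol.

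The members and gene lists were chosen with earlier results of these data known. The text names, by rule, every tested non-clustered and C-type gene, the largest calls and most abundant genes of each cluster, and up to 4 called genes per list. Pcdhb16, Pcdhb20, Pcdhb5, Pcdhb6, Pcdhb8, Pcdhb9, Pcdhb11, Pcdhb2, Pcdha9, Pcdha12, Pcdhga2 and Pcdhga4 were chosen after their values were seen. So were the genes named that did not pass in the lists, the remaining called members and the silencing and progenitor genes beyond 4. The lists of CTCF and cohesin, silencing, partner, classical cadherin and other cadherin genes hold 14, 23, 25, 19 and 28 genes found in the table. One gene of the marker lists was left out of them.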

Additional observations from a re-analysis of the deposited data

Results flagged for a closer look

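In each group of 4, a library was singled out where its gap to the nearest other library, as a share of the group's whole range, was above Dixon's 95% critical value. Chance gives about 1 in 20 groups; here 15 of 162 groups (9.26%) were singled out, and 9 of the 15 were control 4. Each value is given with those of the other libraries of its group. Control 4 was high for Pcdhac1 (6.014 CPM, the others 2.96 to 3.418), for Pcdha7 (1.681 CPM, the others 0.7056 to 0.8383) and for the summed beta cluster (429.7 CPM, the others 312 to 328.9). It was low for Pcdhgb6 (16.17 CPM, the others 22.04 to 23.18). Among genes outside the family, control 4 was high for Celsr1 (52.38 CPM, the others 31.37 to 33.66), Dchs2 (14.74 CPM, the others 4.879 to 5.933), the neuronal gene Nsg2 (12.8 CPM, the others 8.77 to 9.374), Gfap (12.09 CPM, the others 5.536 to 6.187) and Mgp (4.591 CPM, the others 1.248 to 1.741).

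KO-labelled 3 was low for Pcdh17 (69.62 CPM, the others 79.62 to 81.23) and for Pcdhga6 (23.9 CPM, the others 28.05 to 28.75), and high for Ogn (1.578 CPM, the others 0.5227 to 0.6708). KO-labelled 1 was high for Dsc2 (5.166 CPM, the others 3.648 to 3.833) and KO-labelled 4 for Msi1 (66.7 CPM, the others 43.47 to 45.56). Control 2 was the only control with any count of the Y-linked gene Kdm5d (0.1086 CPM, 2 counts).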

How the results depend on the processing

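Of the 16 protocadherin calls, 16 were kept without a filter on low counts, 16 under DESeq2, 16 with robust dispersion, 15 with RLE scaling, with limma voom and with the stricter filter (1 CPM in 4 libraries), where Pcdha7 was not tested, and 13 with upper-quartile scaling. Upper-quartile scaling shifted the median of all genes by -0.04 and no filter by 0.07. Leaving out 1 library kept 9 (without KO-labelled 4) to 16 calls (without control 4, with 8 more). The 13 rises became 7 to 20 when 1 library was left out and 21 with voom; those of the beta cluster, 7, became 2 to 13, 11 without a filter and 12 with voom; those of the gamma cluster, 5, became 3 to 6, and 8 with voom. The gamma cluster, with no fall, had 0 to 1 when 1 library was left out and 1 with voom, DESeq2, the stricter filter and the replicate block. The falls over all members were 2 to 4, and the non-clustered falls 0 to 1. The log2 ratio of the summed gamma cluster was 0.14, but 0.43 without C-type members and 0.41 without Pcdhgc3; leaving out 1 library, it was 0.0460 to 0.195, that of the alpha cluster -0.592 to -0.295, that of the beta cluster 0.273 to 0.430 and that of the non-clustered genes -0.00190 to 0.0976. The causes were not tested.

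Signs turned only for values that did not pass. Leaving out 1 library, they were -0.268 to 0.187 for Pcdhac1, -0.0447 to 0.114 for Pcdhgc3, -0.108 to 0.0670 for Pcdh1, -0.0459 to 0.144 for Pcdh10, -0.232 to 0.0167 for Pcdh15, -0.0728 to 0.0346 for Pcdh7, -0.00611 to 0.176 for Pcdh9 and -0.107 to 0.142 for Trp53bp1. With voom Pcdhac1 was at 0.169 and Pcdh1 at 0.0917, and without a filter Pcdh1 was at 0.0653 and Pcdh7 at 0.0553. Trp53bp1 was at -0.00188 with RLE and -0.0234 with upper-quartile scaling, -0.00432 with the stricter filter, -0.000879 under DESeq2 and -0.0108 with the replicate block.

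Same-numbered libraries of the groups did not deviate together throughout (correlations of 0.162, 0.203, -0.201 and 0.0435 for numbers 1 to 4), so the numbers were not taken as pairs; with the replicate block 12 of the 16 calls were kept, those of Pcdhb18, Pcdhb21, Pcdhb22 and Pcdhga7 were lost (adjusted p = 0.0602, 0.0575 and 0.0871 for the beta genes by edgeR) and 2 genes were added (Pcdhb5 higher and Pcdhgc5 lower); outside the family the calls of Ctcf, Pds5b, Abi2 and Wasf3 were lost. At 4 libraries a group and counts under 500 for many of these genes, small differences were not detectable.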
